A study of Mus musculus with 3 samples.

Results

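The IGF-binding proteins (IGFBPs) are secreted proteins. The 6 genes Igfbp2, Igfbp3, Igfbp4, Igfbp5, Igfbp6 and Igfbp7 were followed here across the cell types read in dissections of the mouse pituitary intermediate lobe (IL). They were chosen by name, all 6 had a row in each of the 3 count tables, and these tables together held 17775 genes. The samples were 3 droplet single-cell libraries of dissected ILs from 3-month-old mice, 1 library for each genotype, after tamoxifen by oral gavage at 4 weeks of age according to the labels, whereas the text of the study places the induction of Cre at birth. The library labelled WT came from Sox9iresCreERT2/+ animals, the library labelled P27NULL from Sox9iresCreERT2/+;p27-/- animals and the library labelled S2CK from Sox9iresCreERT2/+;Sox2fl/+;p27-/- animals, so that the Cre allele was shared by all. The methods of the study add a Rosa26ReYFP/+ reporter in every genotype. The Cre of this allele is made where Sox9 is expressed, so the loss of 1 Sox2 allele starts in Sox9-expressing cells and their descendants, whereas p27 is missing from every cell. The study asked how Sox2 in the stem cells (SCs) of the lobe acts on the melanotrophs around them when p27 is missing.

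IGFBPs bind the insulin-like growth factors IGF1 and IGF2 outside the cell, extend their life in blood and tissue, and hold them back from or deliver them to the receptor IGF1R. Proteases such as PAPPA and HTRA1 cut IGFBPs and free the bound ligand. IGFBP2 to IGFBP6 bind IGFs with high affinity, and IGFBP6 prefers IGF2, whereas IGFBP7 binds them weakly and is known as a protein of blood vessel walls. The IL is made mainly of melanotrophs, which process POMC to melanocyte stimulating hormone, with SCs lining the cleft. The study calls the mouse IL avascular and reports ectopic vessels in p27-/- ILs.

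The libraries held 2020 cells in WT, 4153 in P27NULL and 3488 in S2CK, with 8332285, 15588317 and 19239147 unique molecular identifiers (UMIs, each marking 1 captured RNA molecule), and pairs of libraries shared 2 to 4 cell barcodes. Median depth was 3642.5, 2740.0 and 4906.5 UMIs per cell, and WT kept 162 cells under 1000 UMIs where the other libraries kept none. WT had 0 cells with a UMI of Xist, P27NULL had 783 and S2CK 3274. The study lists each library as a pool, of males for WT and of a male and a female for P27NULL and for S2CK, with which the S2CK count of 3274 of 3488 cells does not match. Sex and genotype therefore cannot be told apart between WT and S2CK. Cdkn1b, which encodes p27, stood at 41.3 counts per 1000000 UMIs (CPM) over all WT cells, 33.9 in P27NULL and 17.7 in S2CK, and in SC-like cells at 47.0, 50.2 and 26.0. The level in the SC-like cells of the library labelled P27NULL therefore went against its label, although these 3′ counts may lie outside the deleted part, and below WT, P27NULL and S2CK stand for the libraries so labelled. Sox2 in SC-like cells stood at 282, 309 and 135 CPM.

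Cells of all libraries were clustered together without the IGFBP and other IGF pathway genes, and 9 cell types were named from listed markers. The niche types were endothelial-like (78, 21 and 43 cells in WT, P27NULL and S2CK), connective tissue-like (54, 50 and 49), SC-like (136, 104 and 82) and posterior lobe-like (44, 18 and 16). All 9 endothelial, 7 connective tissue and 6 SC markers had UMIs in every library. Of the 7 posterior lobe markers, Gfap had 0 UMIs in WT and P27NULL and 14 in S2CK, and the remaining 6 had UMIs in each library. The posterior lobe had been removed in dissection according to the labels. Melanotroph-like cells numbered 1247, 3554 and 2997. Gonadotroph-like cells numbered 57, 131 and 37, and Pou1f1 lineage-like cells, named from Gh and Prl among others, 59, 29 and 34. The study names melanotrophs as the only endocrine cells of the IL, so cells of neighbouring lobes may be in these libraries. The lobe that the endothelial-like and connective tissue-like cells came from was not tested. A level below is the UMIs of a gene summed over the cells of a type in a library, scaled to 1000000 UMIs of that sum, in the order WT, P27NULL and S2CK. Brackets hold exact 95% intervals. With 1 library for each genotype no difference could be tested, and every interval covers counting error only. A 3′ UMI count does not grow with transcript length, so genes are set side by side in CPM without a length correction.

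The IGFBP genes were read mainly in the vessel and connective tissue types. Summed over the 6 genes, endothelial-like cells held 6042, 4893 and 5111 CPM and connective tissue-like cells 6768, 4769.6 and 5419 CPM. SC-like cells held 738, 1285 and 524 CPM and posterior lobe-like cells 719, 1066 and 256 CPM. Melanotroph-like cells held 16.6, 13.0 and 11.3 CPM. The members differed in their place, with Igfbp3 in the endothelial-like type, Igfbp6 in the connective tissue-like type, Igfbp7 in both, Igfbp5 in these and in SC-like cells, Igfbp4 at lower levels in the connective tissue-like and posterior lobe-like types, and Igfbp2 at lower levels in the connective tissue-like type and, in P27NULL, the posterior lobe-like type. UMIs of at least 3 of the 6 genes were found in the same cell in 37.2%, 61.9% and 51.2% of endothelial-like cells and in 64.8%, 58.0% and 55.1% of connective tissue-like cells, against 5.15%, 4.81% and 6.1% of SC-like cells. Median depth was 1113.5, 2251.0 and 2134.0 UMIs in endothelial-like, 1751.0, 2268.5 and 3419.0 in connective tissue-like and 2027.0, 2317.0 and 3561.5 in SC-like cells.

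**Figure D1:**
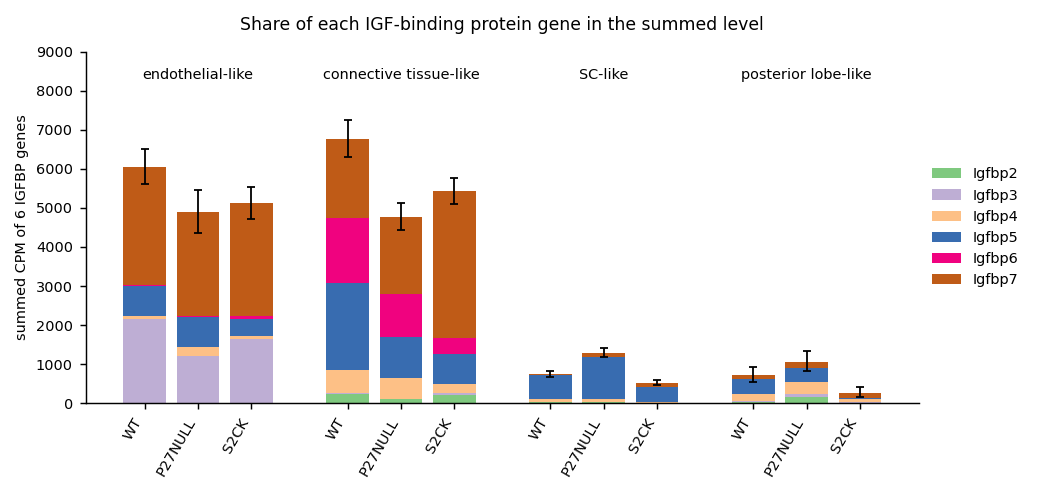
Summed level of the 6 IGFBP genes in CPM in the 4 niche types of each library, stacked by gene, with the exact 95% counting interval of the sum. Igfbp3 and Igfbp7 make up most of the endothelial-like sum, and Igfbp5 most of the SC-like sum, in all 3 libraries.

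**Figure D2:**
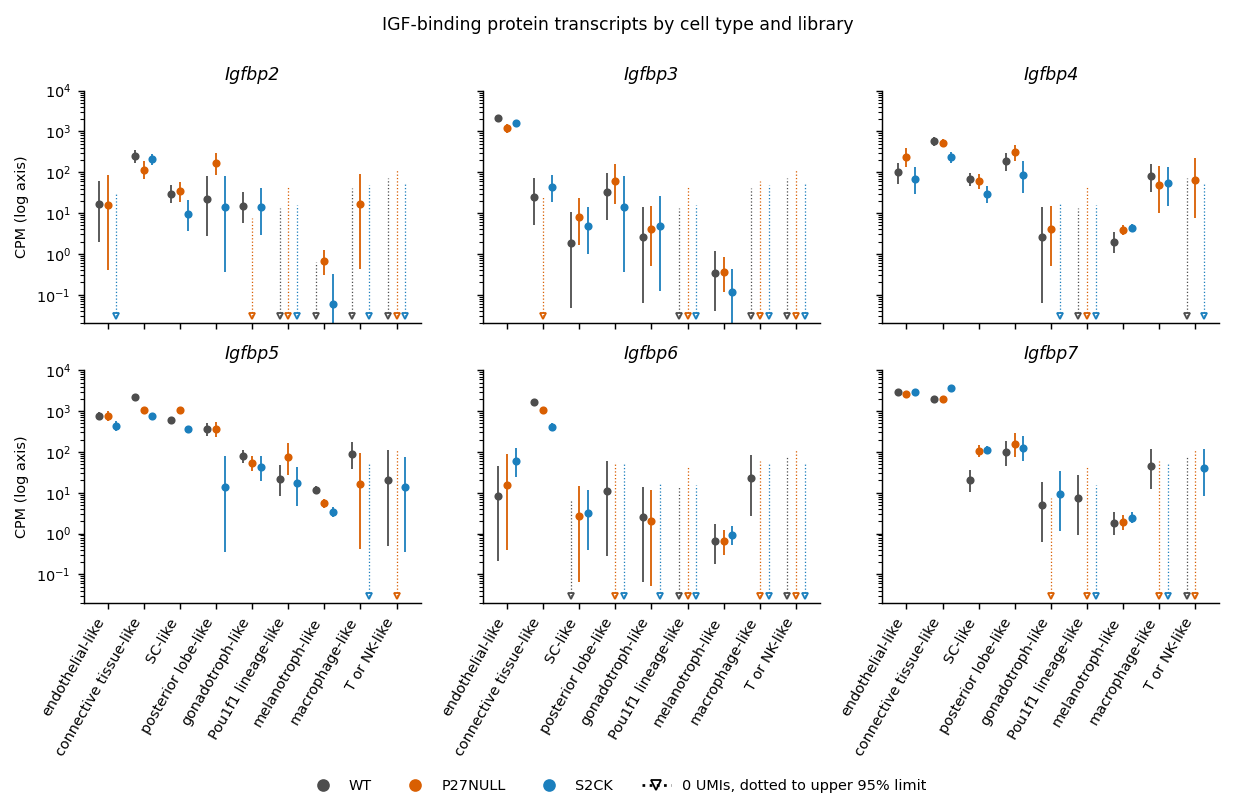
Level of each IGFBP gene in CPM (log axis) by cell type and library, with exact 95% counting intervals and open triangles for 0 UMIs. Igfbp3 stands apart in endothelial-like cells (1188 to 2127 CPM) and Igfbp6 in connective tissue-like cells (409.5 to 1662 CPM), whereas Igfbp5 is read in all 4 niche types.

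Igfbp3, the main carrier of IGFs in blood, was read almost entirely in endothelial-like cells, with 2127 CPM [1875 to 2403] in WT, 1188 [936 to 1487] in P27NULL and 1656 [1431 to 1905] in S2CK. These cells held 95.9%, 84.4% and 92.4% of all Igfbp3 UMIs of their libraries, from 258, 76 and 195 UMIs. An Igfbp3 UMI was found in 73.1%, 85.7% and 74.4% of endothelial-like cells. The next types were posterior lobe-like in WT and P27NULL, at 33.2 and 61.8 CPM, and connective tissue-like in S2CK, at 42.5 CPM, and in no library did their intervals reach that of the endothelial-like cells. Melanotroph-like cells held 0.335, 0.365 and 0.117 CPM, with an Igfbp3 UMI in 0.16%, 0.141% and 0.0667% of cells at median depths of 4185.0, 2819.0 and 5024.0 UMIs.

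Igfbp7 was the highest member in the endothelial-like type in every library, at 3025 CPM [2724 to 3351], 2673 [2288 to 3105] and 2887 [2588 to 3210.3]. Its UMIs were found in 92.3%, 95.2% and 93.0% of these cells. Connective tissue-like cells held 2019, 1978 and 3760.0 CPM, so the endothelial-like type came first in WT and P27NULL and the connective tissue-like type in S2CK, without overlap of the intervals of these 2 types in any library. In P27NULL this order depended on a Pomc-rich sub-cluster of 15 connective tissue-like cells, described below. It held 65090 of the 146135 UMIs of the type but only 6 of its 289 Igfbp7 UMIs. Without it the connective tissue-like type came first in P27NULL too. By the share of cells with a UMI the endothelial-like type came first in all 3 libraries, against 70.4%, 68.0% and 79.6% of connective tissue-like cells. Igfbp3 and Igfbp7 were found together in 52 of 78, 17 of 21 and 29 of 43 endothelial-like cells. Igfbp5 was found in 35.9%, 47.6% and 41.9% of endothelial-like cells, at 767, 766 and 442 CPM, and most of these cells also held an Igfbp3 UMI, with 21, 10 and 17 cells positive for both and 7, 0 and 1 for Igfbp5 alone.

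The promoters of the 3 members with the most marked places are shown side by side, Igfbp3 and Igfbp7 for the endothelial-like type and Igfbp6 for the connective tissue-like type. They are RefSeq sequences of GRCm38.p6, the build of the deposited counts, from 250 bases before to 50 after a transcript start, written 5′ to 3′ on the strand of the gene. Capitals mark GGCGGG, the core of a GC box, searched on both strands, where the other strand reads CCCGCC. Igfbp3 lies on the minus strand of chromosome 11 (chr11:7206086-7215498), next to Igfbp1 (chr11:7197787-7202546), and its window is chr11:7213874-7214173. Igfbp7 lies on the minus strand of chromosome 5 (chr5:77349240-77408045), with the window chr5:77407996-77408295. Igfbp6 lies on the plus strand of chromosome 15 (chr15:102144186-102149512), with the window chr15:102143936-102144235.
Igfbp3: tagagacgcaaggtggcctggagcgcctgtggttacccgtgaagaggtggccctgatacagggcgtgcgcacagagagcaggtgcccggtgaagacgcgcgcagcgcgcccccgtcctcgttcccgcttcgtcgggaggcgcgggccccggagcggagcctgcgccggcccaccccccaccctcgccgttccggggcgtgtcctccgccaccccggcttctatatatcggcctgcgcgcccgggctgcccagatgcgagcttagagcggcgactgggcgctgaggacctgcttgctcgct
Igfbp7: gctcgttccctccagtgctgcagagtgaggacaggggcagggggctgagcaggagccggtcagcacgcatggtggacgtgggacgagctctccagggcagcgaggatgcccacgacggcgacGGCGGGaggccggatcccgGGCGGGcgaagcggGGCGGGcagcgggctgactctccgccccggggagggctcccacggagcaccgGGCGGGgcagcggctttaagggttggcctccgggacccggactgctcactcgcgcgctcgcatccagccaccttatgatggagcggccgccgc
Igfbp6: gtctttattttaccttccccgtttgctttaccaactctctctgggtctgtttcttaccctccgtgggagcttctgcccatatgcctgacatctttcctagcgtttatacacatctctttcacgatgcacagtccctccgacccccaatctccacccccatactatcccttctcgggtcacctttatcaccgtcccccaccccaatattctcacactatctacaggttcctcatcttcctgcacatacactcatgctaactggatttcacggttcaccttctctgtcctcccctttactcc

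The Igfbp7 window held 4 copies of GGCGGG at 73.3% G and C. The Igfbp3 window held 0 copies at 71.7%, and the Igfbp6 window 0 copies at 49.7%. Among 32851 promoters of the same length, 35.3% held a copy and 5.3% held 4 or more, with a median of 52.7% G and C. Igfbp4, on chromosome 11, had 2 copies at 71.3% and Igfbp5, on chromosome 1, had 0 at 56.3%. The 2 annotated windows of Igfbp2 had 2 copies at 67.0% and 0 at 57.3%. Igfbp2 (chr1:72824480-72852474) and Igfbp5 (chr1:72858065-72874865) are neighbours, with 5590.0 bases between them. These matches are letters in a window and say nothing of a factor that binds there.

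Igfbp6 was read mainly in the connective tissue-like type, at 1662 CPM [1438 to 1912], 1088 [926 to 1271] and 409.5 [323 to 512]. This type held 94.2%, 93.0% and 74.8% of all Igfbp6 UMIs. In S2CK the melanotroph-like cells held 15.5% of them and the endothelial-like cells 6.8%. An Igfbp6 UMI was found in 31 of 54, 25 of 50 and 16 of 49 connective tissue-like cells, while in melanotroph-like cells the share was 0.321%, 0.253% and 0.501%. WT was highest and S2CK lowest, and the 3 intervals did not overlap. Endothelial-like cells held 8.24, 15.6 and 59.4 CPM of Igfbp6, from 1, 1 and 7 UMIs.

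Igfbp5, which is bound by extracellular matrix, was highest in connective tissue-like cells in WT (2248 CPM [1985 to 2535]) and S2CK (766 [646 to 902]). In P27NULL the SC-like cells, at 1074 CPM [972 to 1183], and the connective tissue-like cells, at 1054 [894 to 1234], could not be ordered within their intervals. The Pomc-rich sub-cluster of this connective tissue-like type held 65090 of its 146135 UMIs in P27NULL but 7 of its 154 Igfbp5 UMIs. Without the Pomc-rich cells the connective tissue-like type came first in P27NULL too. SC-like cells in WT and S2CK held 618 CPM [553 to 689] and 365 [319 to 416]. SC-like cells, the most numerous niche type, held 38.0%, 53.8% and 44.9% of all Igfbp5 UMIs. An Igfbp5 UMI was found in 61.0%, 70.2% and 52.4% of SC-like cells.

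Igfbp4, a substrate of the protease PAPPA, was highest in connective tissue-like cells in all 3 libraries, at 568 CPM [440.4 to 722], 534 [422 to 666] and 234 [170.0 to 314]. Posterior lobe-like cells followed, at 188 CPM [109.5 to 301], 309 [189 to 477] and 85.4 [31.3 to 186], and in P27NULL and S2CK their intervals overlapped those of the connective tissue-like cells. Igfbp4 was also found in macrophage-like cells in every library, as no other member was, at 79.5, 49.7 and 53.8 CPM, from 7, 3 and 4 UMIs. An unnamed cluster led by H2-Eb1, Cd74 and C1qa among others, with macrophage as its closest type, was not counted there. It held Igfbp4 in every library, from 8, 8 and 10 UMIs, and also Igfbp5, from 16, 9 and 2, and Igfbp7, from 4, 5 and 2. Igfbp2 was at 246 CPM [165 to 353], 116 [67.8 to 186] and 207 [148 to 284] in connective tissue-like cells. In P27NULL the posterior lobe-like cells held 170.0 CPM [84.9 to 304] of Igfbp2, with an interval that overlapped that of the connective tissue-like cells.

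The connective tissue-like type was not uniform in its IGFBP genes. It was split again, without IGF pathway genes, into 5 sub-clusters, which are called here by their leading genes. A sub-cluster led by Slc47a1, Cldn11, Sfrp4 and Rspo3 held Igfbp6 at 2983 CPM [2569.5 to 3444], 3268 [2733 to 3878] and 3783 [2842 to 4936], from 27, 15 and 5 cells. A sub-cluster led by Mfap4 and Cemip, with macrophage genes such as C1qb also among its leading genes, held Igfbp6 at 234, 631 and 256 CPM. The same Mfap4-led cells held Igfbp5 at 5695 CPM [4809 to 6697], 1563 [1167 to 2049.6] and 1469.7 [1207 to 1773], and Igfbp7 at 3823, 4989 and 7159.5 CPM, from 14, 15 and 20 cells. So Igfbp6 was highest in the Slc47a1-led cells in every library and Igfbp7 was higher in the Mfap4-led cells in every library.

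In the Mfap4-led cells Igfbp2 was at 546, 451 and 445 CPM, against 192, 49.9 and 210.2 in the Slc47a1-led cells. A small sub-cluster of 11 cells, with 7 of the 8 markers of mural cells (pericytes and vascular smooth muscle) in at least 10% of them, held Igfbp7 at 8223 CPM [6959.6 to 9649] over all libraries and 0 UMIs of Igfbp2 among 18242 UMIs. A sub-cluster of 36 cells was rich in Pomc (125642 CPM) and had 6 of the 7 melanotroph markers and 6 of the 7 connective tissue markers in at least 10% of its cells. Over the 3 libraries it held only 60.6 CPM of Igfbp6, 109 of Igfbp5 and 121 of Igfbp7.

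**Figure D3:**
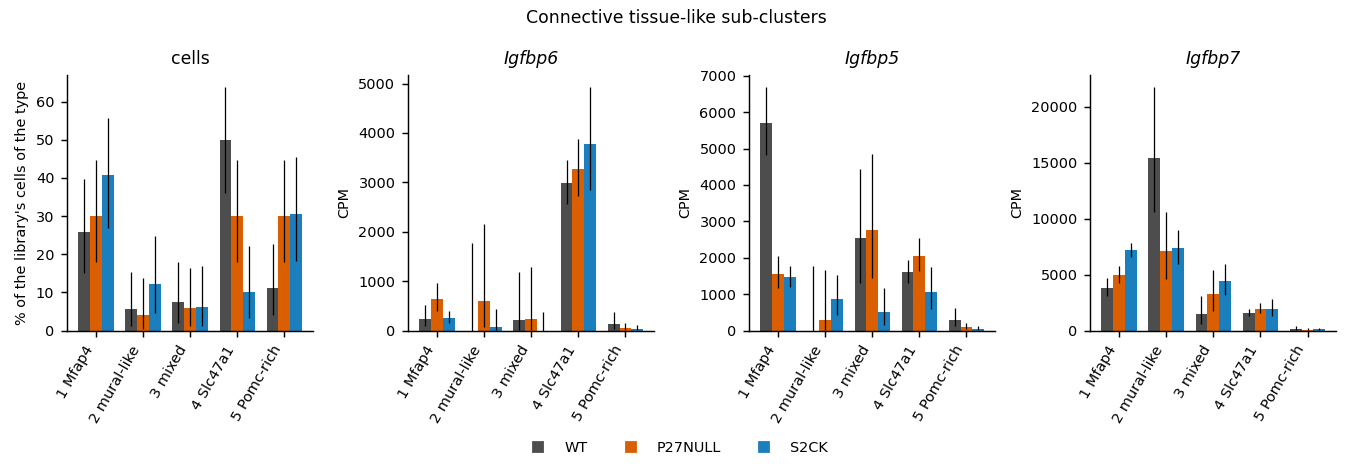
Share of the connective tissue-like cells of each library in each sub-cluster (left, in percent) and levels of Igfbp6, Igfbp5 and Igfbp7 in CPM, with exact 95% intervals. Igfbp6 lies between 2983 and 3783 CPM in the Slc47a1-led cells of all libraries, and Igfbp5 in the Mfap4-led cells is highest in WT, at 5695 CPM.

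The share of the connective tissue-like type in these sub-clusters differed between libraries. The Slc47a1-led cells were 27 of 54 in WT, 15 of 50 in P27NULL and 5 of 49 in S2CK. The Mfap4-led cells were 25.9%, 30.0% and 40.8%, and the Pomc-rich cells 11.1%, 30.0% and 30.6%. These shares move with the type-wide levels of Igfbp6, which were 1662, 1088 and 409.5 CPM.

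Ratios between genotypes were read where a gene had at least 10 UMIs in the 2 libraries together, and a gene was counted when its level differed by 2-fold or more. In the connective tissue-like type, 2 of 5 members passed this mark in P27NULL against WT (19.7% of all genes did), 2 of 5 in S2CK against P27NULL (19.8%) and 3 of 6 in S2CK against WT (25.1%). All 7 were lower in the first-named library. The median log2 ratio over the members was −0.61, −0.46 and −0.76, against −0.09, −0.02 and −0.09 over all genes. The 3 contrasts share libraries and are not independent.

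Igfbp6 in connective tissue-like cells gave a log2 ratio of −0.61 [−0.92 to −0.30] in P27NULL against WT, −1.41 [−1.82 to −1.01] in S2CK against P27NULL and −2.02 [−2.42 to −1.63] in S2CK against WT. Within the Slc47a1-led cells the same ratios were 0.13 [−0.20 to 0.46], 0.21 [−0.27 to 0.68] and 0.34 [−0.12 to 0.79]. These cells held most of the Igfbp6 UMIs of the type, and only 5 of them were from S2CK. Within the Mfap4-led cells the ratios were 1.43 [0.07 to 3.03], −1.30 [−2.28 to −0.33] and 0.13 [−1.25 to 1.74], from 6, 21 and 19 UMIs. The part of the makeup of the type in its Igfbp6 ratios was not tested. Without the Pomc-rich cells the ratios over the type were −0.09, −1.52 and −1.61. Against the 9 P27NULL cells with Xist and no Y-linked UMI, which held 8 Igfbp6 UMIs, the S2CK ratio was 0.23 [−0.82 to 1.49].

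Igfbp5 in connective tissue-like cells gave −1.09 [−1.39 to −0.80] in P27NULL against WT, −0.46 [−0.80 to −0.12] in S2CK against P27NULL and −1.55 [−1.86 to −1.26] in S2CK against WT. Here the difference was seen within the Mfap4-led cells, at −1.86 [−2.35 to −1.40] in P27NULL against WT and −1.95 [−2.33 to −1.59] in S2CK against WT. In the Slc47a1-led cells it was 0.35 [−0.09 to 0.79] and −0.61 [−1.50 to 0.18]. Without the Pomc-rich cells the type-wide ratios were −0.58, −0.53 and −1.11.

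Igfbp7 in connective tissue-like cells was higher in S2CK, at 0.93 [0.73 to 1.13] against P27NULL and 0.90 [0.68 to 1.11] against WT, which is under 2-fold. Within the Mfap4-led cells these ratios were 0.52 [0.27 to 0.78] and 0.90 [0.59 to 1.23], and without the Pomc-rich cells of the type the second was 1.34. Igfbp4 was at −0.09 [−0.58 to 0.40], −1.19 [−1.76 to −0.64] and −1.28 [−1.86 to −0.71] over the type. Against the P27NULL cells with Xist and no Y-linked UMI, the S2CK ratio of Igfbp4 was −0.39 [−1.55 to 1.01], from 44 and 7 UMIs. Within the Mfap4-led cells the S2CK ratios were −0.70 [−1.46 to 0.07] against P27NULL and −0.02 [−0.97 to 1.01] against WT, and the 5 Slc47a1-led cells of S2CK held 1 Igfbp4 UMI. Igfbp2 was at −1.08 [−2.04 to −0.17], 0.83 [−0.02 to 1.75] and −0.25 [−0.98 to 0.50], from 29, 17 and 39 UMIs, and without the Pomc-rich cells the first of these was −0.49.

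**Figure D4:**
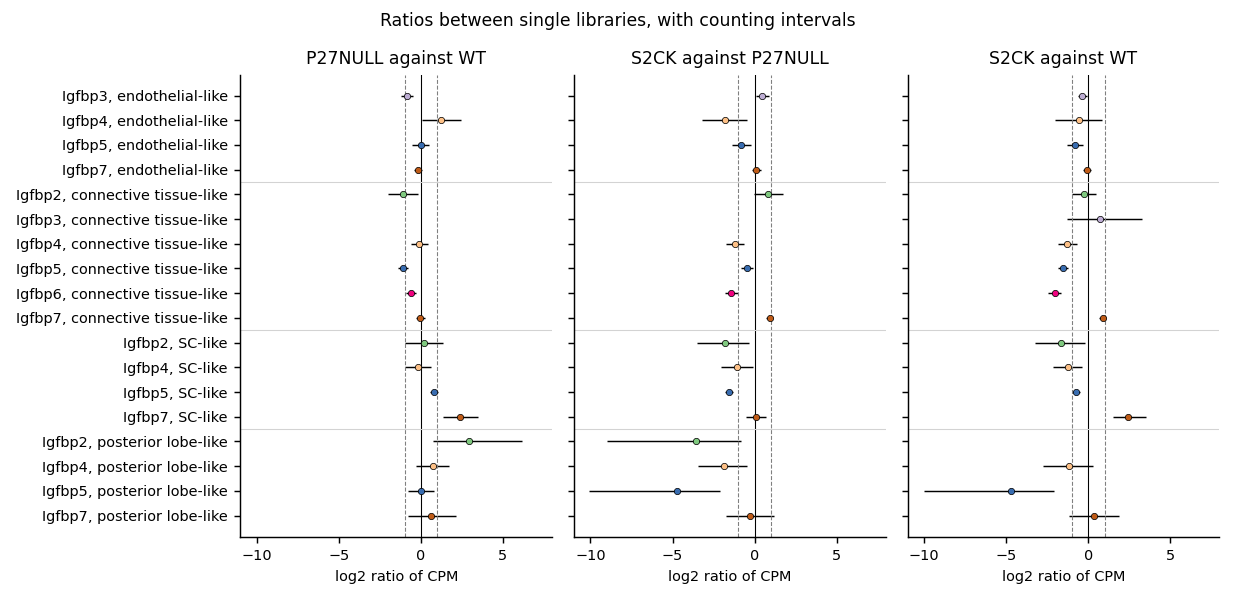
Log2 ratio of IGFBP levels between genotypes in each niche type, with exact 95% counting intervals and lines at 2-fold. Most points past the lower line belong to connective tissue-like, SC-like and posterior lobe-like cells of S2CK, and the endothelial-like Igfbp7 ratios lie between −0.18 and 0.11.

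In endothelial-like cells Igfbp7 differed by less than its counting intervals between libraries, Igfbp3 was highest in WT and Igfbp5 was lowest in S2CK. Of 4 members with enough UMIs, 1 passed 2-fold in P27NULL against WT (21.1% of all genes did), 1 in S2CK against P27NULL (24.2%) and 0 in S2CK against WT (19.0%). The gene that passed was Igfbp4 in both cases, at 1.25 [0.05 to 2.47] and −1.79 [−3.23 to −0.46], from 12, 15 and 8 UMIs. Igfbp7 gave −0.18 [−0.45 to 0.09], 0.11 [−0.16 to 0.38] and −0.07 [−0.28 to 0.15]. Igfbp3 gave −0.84 [−1.23 to −0.47], 0.48 [0.09 to 0.88] and −0.36 [−0.64 to −0.09], so that WT was highest and P27NULL lowest. Without the cell with the most Igfbp3 UMIs in each library, P27NULL against WT was −1.05 [−1.49 to −0.64]. Of the endothelial markers, Egfl7 (3091 CPM in WT and 1845 in P27NULL), Emcn, Plvap, Kdr, Flt1 and Pecam1 were also lower in P27NULL than in WT. Cdh5 (502.8 and 625.3 CPM), Esam and Cldn5 were higher. The part of these marker differences in the Igfbp3 ratio was not tested. Igfbp5 was lower in S2CK, at −0.80 [−1.39 to −0.20] against P27NULL and −0.80 [−1.31 to −0.29] against WT.

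In SC-like cells, 1 of 4 members passed 2-fold in P27NULL against WT (12.6% of all genes did), 3 of 4 in S2CK against P27NULL (18.1%) and 3 of 4 in S2CK against WT (16.7%). The median over the members was 0.50, −1.31 and −0.98, against 0.03, −0.12 and −0.06 over all genes. Igfbp5 was higher in P27NULL than in WT, at 0.80 [0.58 to 1.01], and lower in S2CK than in P27NULL, at −1.56 [−1.80 to −1.32], and than in WT, at −0.76 [−1.01 to −0.51]. P27NULL cells without Xist gave 0.86 [0.64 to 1.08] against WT, and S2CK against the P27NULL cells with Xist gave −1.06 [−1.57 to −0.52]. Igfbp4 in S2CK gave −1.06 [−2.03 to −0.10] against P27NULL and −1.21 [−2.11 to −0.36] against WT, and Igfbp2 gave −1.82 [−3.50 to −0.32] and −1.63 [−3.27 to −0.20], from 16, 13 and 6 UMIs.

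The makeup of the SC-like type also differed between libraries. Cells led by Ptn and Aldh1a2 held the most Igfbp5 in every library, at 1787 CPM [1370.0 to 2291], 2099.6 [1780.1 to 2459.9] and 1519 [1195 to 1904], and were 10.3%, 26.9% and 13.4% of the type. Within them the Igfbp5 ratio was 0.23 [−0.20 to 0.68] in P27NULL against WT, −0.47 [−0.88 to −0.06] in S2CK against P27NULL and −0.23 [−0.74 to 0.28] in S2CK against WT. Cells led by Hspb1 held 525, 587 and 457 CPM and were 46.3%, 18.3% and 8.54% of the type. In S2CK, cells led by Spp1, C3 and Msln (24.4%) and by Acta2 and Krt17 (35.4%) made up most cells of the type. There they held 214 and 263 CPM of Igfbp5. These cells were 2.94% and 4.41% of the type in WT and 2.88% and 7.69% in P27NULL. The Spp1-led cells, at a median depth of 11295.0 UMIs, also had Dcn, Mgp and H2-Aa among their leading genes. Of the 7 connective tissue and 6 macrophage markers, 6 and 5 were found in at least 10% of these cells. A Pomc-rich sub-cluster, which had all 7 melanotroph markers at its depth of 8395.5 UMIs per cell, held 517, 1007 and 332 CPM of Igfbp5. It gave 0.96 [0.61 to 1.32], −1.60 [−2.04 to −1.19] and −0.64 [−1.09 to −0.20]. A type-wide level weighs cells by their UMIs, and the deep sub-clusters weigh most. The Pomc-rich cells held 232242 of the 532221 UMIs of the type in WT, 156832 of 378149 in P27NULL and 205116 of 616046 in S2CK. In S2CK the Spp1-led cells held 265763 and the Acta2-led cells 72290.

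**Figure D5:**
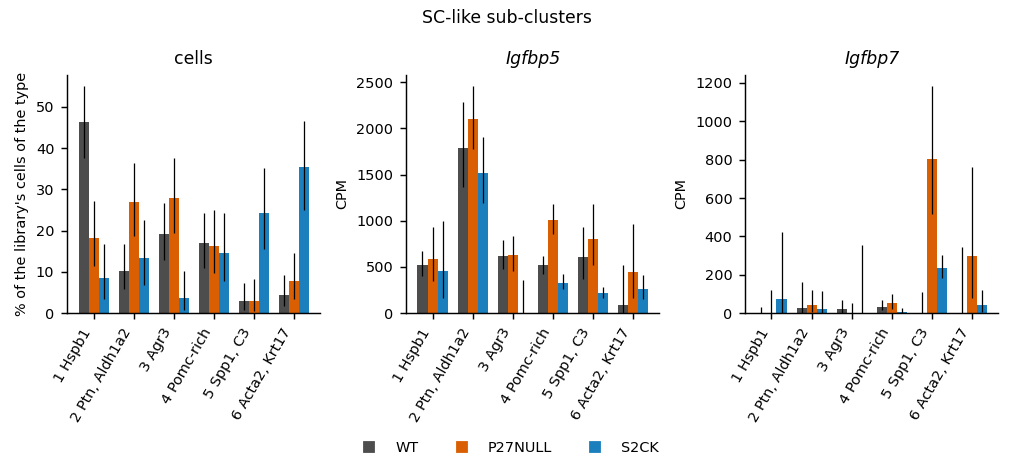
Igfbp5 and Igfbp7 levels in CPM in the sub-clusters of the SC-like type, by library, with exact 95% counting intervals. Igfbp5 is highest in the Ptn-led cells of every library (1519 to 2099.6 CPM). Igfbp7 in the Spp1-led cells reaches 802 CPM in P27NULL (3 cells), against 237 CPM in S2CK (20 cells) and 0 UMIs in WT (4 cells). The 25 Igfbp7 UMIs of these P27NULL cells lie in 2 cells. The left panel gives the share of the type in each sub-cluster, in percent.

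Igfbp7 in SC-like cells was at 20.7 CPM [10.3 to 37.0] in WT, 106 [75.6 to 144] in P27NULL and 112 [87.1 to 142] in S2CK. The log2 ratio was 2.36 [1.37 to 3.47] in P27NULL against WT, 0.08 [−0.50 to 0.68] in S2CK against P27NULL and 2.44 [1.51 to 3.51] in S2CK against WT. Few cells carried these UMIs. In S2CK a single cell held 40 of 69 Igfbp7 UMIs (58.0%) and the next held 15, and in P27NULL the top cells held 18 and 7 of 40. These 4 cells all fell in the Spp1-led sub-cluster and also held 12, 8, 24 and 3 UMIs of the connective tissue marker Dcn. Their doublet scores were 0.128 and 0.162 in S2CK and 0.255 and 0.228 in P27NULL. Without the cells with the highest doublet scores in each library the 3 ratios were 1.09, 1.48 and 2.57. Without the cell with the most Igfbp7 UMIs in each library they were 1.80 [0.63 to 3.11], −0.34 [−1.19 to 0.53] and 1.47 [0.35 to 2.73]. The 18 SC-like cells of P27NULL with Xist and no Y-linked UMI held 0 Igfbp7 UMIs.

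Posterior lobe-like cells were few, and their ratios rest on small counts. Of the members, 1 of 4 passed 2-fold in P27NULL against WT (18.2% of all genes did), 3 of 4 in S2CK against P27NULL (26.2%) and 2 of 3 in S2CK against WT (26.5%). Igfbp5 had 33, 24 and 1 UMIs, at 365, 371 and 14.2 CPM, which gave −4.70 [−10.07 to −2.09] in S2CK against P27NULL and −4.68 [−10.03 to −2.10] against WT. Of the P27NULL cells, those without Xist held 2 of these UMIs, at 79.4 CPM, which gave −2.20 [−5.30 to −0.23] against WT, whereas all P27NULL cells gave 0.02 [−0.80 to 0.83]. Igfbp2 had 2, 11 and 1 UMIs and gave 2.94 [0.75 to 6.16] in P27NULL against WT and −3.58 [−9.01 to −0.80] in S2CK against P27NULL. With only the P27NULL cells without Xist, the first ratio of Igfbp2 rested on 1 and 2 UMIs, at 0.84 [−5.04 to 5.11]. Igfbp4 in S2CK gave −1.86 [−3.46 to −0.49] and −1.14 [−2.77 to 0.27]. Igfbp7 gave 0.64 [−0.82 to 2.11], −0.27 [−1.75 to 1.18] and 0.36 [−1.14 to 1.87]. The marker Gfap moved with these differences, at 0, 0 and 199 CPM, as did Scn7a, at 708, 680 and 142 CPM, and their part in the result was not tested.

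Across the 4 niche types and 3 contrasts, 22 of 51 member ratios passed 2-fold, 4 higher and 18 lower. Over all genes the share that passed was 12.6% to 26.5% by type and contrast, with 6.79% to 12.6% higher and 5.39% to 19.1% lower. In P27NULL against WT 5 of 17 passed, 3 higher and 2 lower, in S2CK against P27NULL 9 of 17, all lower, and in S2CK against WT 8 of 17, 1 higher and 7 lower.

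In melanotroph-like cells the members were set beside free RNA, which gives UMIs of a source type's genes in cells that do not express them and keeps those genes in 1 ratio. This yardstick is made for a gene with 1 source type, and Igfbp4, Igfbp5 and Igfbp7 were read in several types. Igfbp3 stood at 0.0158%, 0.0307% and 0.00709% of its endothelial-like level, while the summed endothelial markers stood at 0.0934%, 0.099% and 0.102% of theirs. Igfbp7 stood at 0.061%, 0.0709% and 0.0656% of the level of its highest type, with a UMI in 0.802%, 0.703% and 1.17% of melanotroph-like cells, and its intervals held the value of the summed markers of that type (0.0934%, 0.099% and 0.0798%) in every library. Igfbp6 stood at 0.0404%, 0.0603% and 0.229% of its connective tissue-like level, against 0.0908%, 0.064% and 0.0798% for the connective tissue markers. Igfbp4 stood at 0.354%, 0.738% and 1.83% of its connective tissue-like level, above those markers in each library. Its level in melanotroph-like cells was 2.01 CPM [1.04 to 3.52], 3.94 [2.96 to 5.14] and 4.28 [3.36 to 5.39].

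Igfbp5 in melanotroph-like cells was at 11.7 CPM [9.15 to 14.8], 5.47 [4.30 to 6.85] and 3.40 [2.58 to 4.40]. In WT and S2CK this was 0.522% and 0.445% of the connective tissue-like level, above the markers of that type. Set against SC-like cells, which held the most Igfbp5 UMIs, it was 1.90% [1.48 to 2.40], 0.509% [0.401 to 0.638] and 0.932% [0.708 to 1.20] of their level. The summed SC markers stood at 0.272%, 0.367% and 0.492%, and single markers at 0.0918% to 0.327%, 0.0589% to 0.544% and 0.0613% to 1.09%, so Igfbp5 lay above all of them in WT and within their range in P27NULL and S2CK. Gonadotroph-like cells held Igfbp5 at 78.9 CPM [53.6 to 112], 53.0 [34.6 to 77.7] and 43.1 [19.7 to 81.8], with a UMI in 29.8%, 11.5% and 10.8% of cells, against 4.17%, 1.97% and 1.87% of melanotroph-like cells. In gonadotroph-like cells Igfbp5 stood at 12.8%, 4.94% and 11.8% of its SC-like level and the summed SC markers at 4.35%, 11.1% and 8.42%, with single markers up to 9.42%, 15.2% and 19.5%. The gonadotroph-like level of Igfbp5 was 3.51% and 5.63% of the connective tissue-like level in WT and S2CK, where the connective tissue markers were at 0.157% and 0.0685%. Since free RNA of Igfbp5 may come from several types at once, the markers of a single type cannot show its source in either endocrine type.

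The genes most like each member were found over 27 sums of a cell type in a library by the correlation of log2(CPM + 10), which is a description since the sums share libraries and depth. Igfbp3 was most like Plvap (r = 0.95), Kank3 (0.932) and Kdr (0.923), and Plvap and Kdr are endothelial markers. Igfbp6 was most like Serping1 (0.932), Dcn (0.923) and Colec12 (0.896), and Dcn, the matrix proteoglycan decorin, is a connective tissue marker. Igfbp7 was most like the basement membrane collagen Col4a1 (0.937), Ramp2 (0.927) and Ctgf (0.925). Igfbp5 was most like the metalloproteinase inhibitor Timp3 (0.907), Lbp (0.887) and Gpx8 (0.871), Igfbp4 like Cd302 (0.88), Ctgf (0.823) and Fstl1 (0.818), and Igfbp2 like Islr (0.889), 1500015O10Rik (0.878) and Gm14964 (0.863). Among the members themselves Igfbp5 and Igfbp7 were most alike (0.811), and Igfbp2 and Igfbp3 least (0.204).

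Of 24 other IGF pathway genes listed, 20 had a row in any table and 15 in all 3. The receptor Igf1r was read in melanotroph-like cells at 51.1, 60.2 and 50.2 CPM and in SC-like cells at 77.0, 103 and 106 CPM. Connective tissue-like cells held 25.4, 61.6 and 47.9 CPM of Igf1r, from 3, 9 and 9 UMIs, and endothelial-like cells 16.5, 31.3 and 17.0 CPM, from 2 UMIs in each library. The ligand Igf1 was low, at 1.68, 4.37 and 1.94 CPM in melanotroph-like cells, and macrophage-like cells held 9 Igf1 UMIs (149 CPM) in P27NULL and 0 in the other libraries. Ctgf, a matrix-associated CCN protein with an IGFBP-type domain, was at 662, 123 and 223 CPM in connective tissue-like and 313, 328 and 323 CPM in endothelial-like cells. Nov, of the same family, was at 263, 103 and 21.3 CPM in connective tissue-like cells, and Cyr61 at 86.4, 159 and 48.7 CPM in SC-like cells. Kazald1, an IGFBP-related protein, was in SC-like cells at 92.1, 89.9 and 69.8 CPM and in melanotroph-like cells at 44.3, 36.2 and 48.1 CPM, and the protease Htra1 was in posterior lobe-like cells at 177, 108 and 99.6 CPM.

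Of the pathway ratios in the 4 niche types, 21 of 62 passed 2-fold, 7 higher and 14 lower, beside the same 12.6% to 26.5% of all genes. Ctgf in connective tissue-like cells gave −2.42 [−3.25 to −1.67] in P27NULL against WT and −1.57 [−2.14 to −1.01] in S2CK against WT, and Nov gave −1.36 [−2.35 to −0.42] and −3.63 [−5.59 to −2.13]. Cyr61 in SC-like cells gave 0.88 [0.30 to 1.46] in P27NULL against WT and −1.70 [−2.39 to −1.05] in S2CK against P27NULL, the same directions as Igfbp5 in these cells.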

How the data were processed

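The deposited files hold raw counts, genes by cell barcodes, 1 table for each library. According to the submitters' processing notes and the methods, the authors made Chromium Single Cell 3′ libraries and counted UMIs with Cell Ranger 3.0.2 and STAR 2.5.1b on GRCm38 (mm10), and R 3.6.0 and Seurat 3 are also named. The methods give a filter of at least 50 genes and at most 10% mitochondrial content, while the lowest cells in the tables held 213, 502 and 517 genes in WT, P27NULL and S2CK. No cell was removed here. The members and lists were chosen with earlier results of these data known.

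Cells of the 3 libraries were clustered together (scanpy 1.11.5, igraph 0.11.9, Python 3.11.15) on counts scaled to 10000 per cell and log-transformed, with 2000 variable genes, 20 principal components, 20 neighbours and Leiden resolution 1. The clustering left out 38 genes, which were the IGFBP, IGF pathway and Igf2bp genes, Xist and Y-linked genes. A cluster was named where it had at least 3 of a type's markers in 10% of its cells, a relative marker level of at least 0.3 and a lead of 0.1, thresholds set after seeing the data. This left 2 clusters unnamed. Sub-clusters used 15 neighbours. Doublets were kept, and 268 cells, those with the highest doublet scores, were removed in an alternative. Exact intervals at 95% (Poisson, binomial and conditional binomial) were computed with scipy 1.17.1 and tested on simulated counts. All 6 members were named, then pathway genes with at least 50 UMIs over all cells, the 3 most alike genes for each member among those with at least 200 UMIs, and cell type markers. Likeness used the 27 sums with at least 20000 UMIs. Scaling alternatives used edgeR 4.0.16 and DESeq2 1.42.0 on these counts (R 4.3.3). Other alternatives were filters on genes or UMIs, thinning to 1000 UMIs, other clusterings and cells of 1 sex.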

Additional observations from a re-analysis of the deposited data

Results flagged for a closer look

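For 2 genes the ratio of P27NULL against WT had opposite signs in 2 cell types, with neither interval reaching 0, and with 1 library for each genotype these differences were not tested. Igfbp2 had a log2 ratio of 2.94 in posterior lobe-like cells, from 11 and 2 UMIs, and −1.08 in connective tissue-like cells, from 17 and 29 UMIs. With only the P27NULL cells without Xist the first was 0.84 [−5.04 to 5.11], from 1 and 2 UMIs, which leaves the sign of Igfbp2 in this type open to counting error. Igfbp5 had a log2 ratio of 0.80 in SC-like cells and −1.09 in connective tissue-like cells, from 406 and 329 and from 154 and 265 UMIs. Both connective tissue-like ratios were smaller in size without the Pomc-rich cells, as given above. Within the Mfap4-led and the Slc47a1-led cells Igfbp2 gave −0.28 [−1.43 to 0.88] and −1.95 [−5.15 to 0.22]. Igfbp5 gave −1.86 [−2.35 to −1.40] and 0.35 [−0.09 to 0.79] in these cells.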

How the results depend on the processing

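No paired analysis was possible because each genotype had 1 library, which also leaves no spread between animals or preparations to compare a ratio with. Of the 51 member ratios, 22 passed 2-fold, and this became 10 of 26 with each library clustered alone, where endothelial-like and connective tissue-like cells of P27NULL fell into 1 unnamed cluster, 14 of 40 with cells thinned to 1000 UMIs and 36 of 71 with no minimum of UMIs. Of the pathway ratios, 21 of 62 passed, against 11 of 25 thinned and 74 of 149 with no minimum. The share of all genes that passed is not given for these alternatives. Their counts are therefore not read as a result about the members or the pathway genes. The level of each member in its highest type stayed within its interval in 3 of 18 cases with Pomc and the mitochondrial and ribosomal protein genes taken out of the total, in 11 of 14 with libraries clustered alone, in 10 of 18 thinned and in 9 of 18 without the Pomc-rich sub-clusters, an alternative chosen after seeing the data. The first changes the total that every level is divided by, and the cause of the others was not tested. The highest type of a member was kept in 17 of 18 cases with those genes taken out of the total and in 15 of 18 thinned. It was also kept in 15 of 18 without the Pomc-rich sub-clusters, where it became the connective tissue-like type for Igfbp2, Igfbp5 and Igfbp7 in P27NULL. The ratios whose sign changed included those of Igfbp6 in connective tissue-like cells. With cells of 1 sex, S2CK against P27NULL became 0.23. Within the Mfap4-led cells S2CK against WT became 0.13 and P27NULL against WT 1.43, while S2CK against P27NULL was −1.30. Within the Slc47a1-led cells P27NULL against WT became 0.13, S2CK against P27NULL 0.21 and S2CK against WT 0.34. Igfbp5 in connective tissue-like cells of P27NULL against WT turned to 0.35 within the Slc47a1-led cells. The intervals of all these positive values except 1.43 held 0, which leaves their direction open to counting error. In posterior lobe-like cells the Igfbp5 ratio of P27NULL against WT went from 0.02 to −2.20 with cells of 1 sex. Scaling turned no direction, but with TMM factors Igfbp2 and Igfbp5 in connective tissue-like cells of P27NULL against WT (−0.96 and −0.98) and Igfbp4 in SC-like cells of S2CK against P27NULL (−0.95) no longer passed 2-fold. Without the highest doublet scores the SC-like Igfbp7 ratios were 1.09 in P27NULL against WT and 1.48 in S2CK against P27NULL.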
